A study of Homo sapiens with 8 samples.

Results

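The SOX genes encode transcription factors that bind DNA through an HMG box, a domain that bends the double helix at short sites with the core ACAAT or ACAAAG. Family members are sorted into groups by sequence: SOX2 belongs to group B, SOX4, SOX11 and SOX12 to group C, SOX5, SOX6 and SOX13 to group D, SOX9 to group E, and SOX17 and SOX18 to group F. In the developing pancreas SOX9 maintains the pool of multipotent progenitors, SOX4 and SOX11 are expressed in the epithelium, and SOX17 acts earlier, in endoderm. The acetylation of lysine 27 of histone H3 (H3K27ac) marks active promoters and enhancers. The 10 SOX genes named here were taken by name from the 20007 protein-coding genes of the annotation, and every H3K27ac peak in the gene body or within 50 kb on either side was counted as belonging to the window of that gene. For SOX9, whose flanks are long and hold few genes, a window of 500 kb on either side was used as well.

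H3K27ac was measured by chromatin immunoprecipitation and sequencing (ChIP-seq) in pancreatic progenitors (PPs) derived from human pluripotent stem cells of 1 line background, MEL1. The methods of the study list this line as MEL1 INS GFP/W, an embryonic stem cell line with GFP placed at the insulin gene, an allele that both groups would then share. The PPs were held in EF6 medium, which contains EGF, bFGF and the TGF-β receptor inhibitor 616452. Both groups carried the same genetic background and medium and differed in the agent added for 7 days, DMSO in 2 libraries and 1 μM I-BET151 in 2 libraries, I-BET151 being an inhibitor of the BET bromodomain proteins that read acetylated histones. Of the 8 samples of the series, the 4 H3K27ac libraries have peak lists, and the 4 inputs enter only as the background of those lists. The labels do not say whether replicates came from separate cultures, so the spread between libraries may be technical.

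Peak lists held 13606 and 14248 peaks in the DMSO libraries and 12887 and 12312 in the I-BET151 libraries, which covered 9.91, 9.87, 9.19 and 8.62 Mb in the same order. Recovered from the lists, depth was between 7.76 and 9.84 M ChIP reads and between 2.67 and 3.04 M input reads a library. Of 10 PP markers, 9 had a peak within 3 kb of a start in all 4 libraries, PTF1A being the exception. None of 5 definitive endoderm, 5 neural or 5 endocrine markers had a promoter peak in any library, and 1 of 5 pluripotency markers (LIN28A) had one in all 4. Of 5 mesenchymal markers, 1 (PDGFRB) had a promoter peak in all 4 libraries, and of 5 hepatic markers APOA1 had one in all 4 and SERPINA1 in 3. Of 5 endothelial markers, PECAM1 had a promoter peak with DMSO, in each library, and none with I-BET151.

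Coverage summed over the windows of other lineages' markers lay lower after I-BET151 in 3 of the lists, each resting on 2 genes with a peak. Lower coverage was common in the series: of all protein-coding gene windows with a peak, 44.4% lay below in both I-BET151 libraries and 12.5% above. For endothelial markers it was 3.99 and 4.15 kb with DMSO and 2.70 and 2.94 kb with I-BET151, from TIE1 and PECAM1. Most of it lay in the window of TIE1, which had no promoter peak in any library, and the defining genes CDH5, KDR and TEK were at 0. For mesenchymal markers it was 3.62 and 4.37 kb against 1.94 and 1.82 kb, from COL1A1 and PDGFRB, with TWIST1, PRRX1 and POSTN at 0. COL1A1 had no promoter peak in any library. For hepatic markers it was 4.53 and 4.54 kb against 2.88 and 1.96 kb, from APOA1 and SERPINA1, with AFP, ALB and TTR at 0. The endocrine list lay higher, at 6.37 and 6.63 kb against 8.08 and 8.52 kb, all of it in the window of INS and none at its promoter. The pluripotency and definitive endoderm lists overlapped between groups and the neural list was at 0. The part of cell makeup in the results at the SOX genes was not tested.

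The lists placed 28 and 27 peaks of the DMSO libraries and 30 and 32 peaks of the I-BET151 libraries in the windows of the SOX genes. Merged across libraries wherever they shared at least 1 bp, they formed 30 of the 15752 regions of the series, and none lay in the windows of 2 SOX genes. Of these 30 regions, 13 lay within 3 kb of a start of their own SOX gene, 7 lay within 3 kb of a start of another protein-coding gene only, and 10 lay at neither. SOX4, SOX5, SOX6, SOX9, SOX11, SOX12 and SOX13 had a promoter peak in all 4 libraries. SOX2, SOX17 and SOX18 had none in any library.

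To let the regions at SOX9 and its relatives be read directly, the reference sequences of 8 of them are given, on the + strand of hg38 and without untranslated exons of coding genes. The first pair was listed after I-BET151, in each library, but not with DMSO. The others were in all 4 lists and stand for the upstream SOX9 cluster, the distant SOX9 flank, and the upstream regions of SOX4 and SOX5. Capitals mark matches on either strand to the SOX words ACAAT and ACAAAG, to TGGGAA (RBPJ), and to TGACGTCA, the cAMP response element, a word added to the search after its sequence had been seen.
SOX9 −5.03 kb, I-BET151 lists only (chr17:72115830-72116129): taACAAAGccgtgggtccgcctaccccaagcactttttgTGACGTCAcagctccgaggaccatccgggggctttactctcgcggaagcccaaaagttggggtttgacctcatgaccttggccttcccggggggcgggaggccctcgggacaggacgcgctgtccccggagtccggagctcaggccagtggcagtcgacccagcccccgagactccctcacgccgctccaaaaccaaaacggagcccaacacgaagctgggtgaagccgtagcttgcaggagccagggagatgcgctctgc
SOX9 +454 kb, I-BET151 lists only (chr17:72575230-72575529): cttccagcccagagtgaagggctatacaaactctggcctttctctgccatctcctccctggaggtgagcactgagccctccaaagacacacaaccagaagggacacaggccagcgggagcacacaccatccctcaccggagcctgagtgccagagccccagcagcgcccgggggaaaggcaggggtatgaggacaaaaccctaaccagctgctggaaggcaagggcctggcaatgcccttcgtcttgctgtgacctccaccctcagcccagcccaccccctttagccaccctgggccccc
SOX9 −3.03 kb (chr17:72117867-72118116): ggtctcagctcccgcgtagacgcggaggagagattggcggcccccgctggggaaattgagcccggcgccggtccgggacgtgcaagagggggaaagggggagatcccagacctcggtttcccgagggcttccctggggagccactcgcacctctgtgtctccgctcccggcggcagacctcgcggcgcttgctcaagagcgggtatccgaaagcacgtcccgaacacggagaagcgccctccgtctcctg
SOX9 −0.74 kb (chr17:72120157-72120406): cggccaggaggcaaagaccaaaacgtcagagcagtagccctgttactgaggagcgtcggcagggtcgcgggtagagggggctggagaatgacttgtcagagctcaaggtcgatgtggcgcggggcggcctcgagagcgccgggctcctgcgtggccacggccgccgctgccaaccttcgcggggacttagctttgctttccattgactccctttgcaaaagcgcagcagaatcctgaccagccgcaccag
SOX9 +325 kb (chr17:72445573-72445822): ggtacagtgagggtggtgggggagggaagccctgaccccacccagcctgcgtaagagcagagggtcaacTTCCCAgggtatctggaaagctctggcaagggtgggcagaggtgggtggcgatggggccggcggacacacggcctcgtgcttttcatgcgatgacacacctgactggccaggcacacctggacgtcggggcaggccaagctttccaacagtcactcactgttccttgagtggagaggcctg
SOX9 +398 kb (chr17:72518704-72518953): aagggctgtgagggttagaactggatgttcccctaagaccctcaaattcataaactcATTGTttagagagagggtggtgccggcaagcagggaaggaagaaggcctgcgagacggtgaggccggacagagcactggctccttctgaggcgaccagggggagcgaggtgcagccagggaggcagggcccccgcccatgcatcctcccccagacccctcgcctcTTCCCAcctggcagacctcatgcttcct
SOX4 −6.01 kb (chr6:21587613-21587862): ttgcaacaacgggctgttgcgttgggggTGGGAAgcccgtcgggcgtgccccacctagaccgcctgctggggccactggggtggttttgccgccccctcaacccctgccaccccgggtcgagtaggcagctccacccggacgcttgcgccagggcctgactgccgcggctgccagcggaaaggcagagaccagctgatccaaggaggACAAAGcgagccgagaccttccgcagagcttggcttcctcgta
SOX5 −0.19 kb (chr12:24562607-24562856): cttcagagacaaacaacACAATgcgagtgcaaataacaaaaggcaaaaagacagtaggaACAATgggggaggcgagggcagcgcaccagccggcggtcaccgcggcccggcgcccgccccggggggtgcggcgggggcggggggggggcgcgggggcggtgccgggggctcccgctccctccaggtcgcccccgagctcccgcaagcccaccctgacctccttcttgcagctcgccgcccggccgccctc

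First, the length covered by peaks was compared between groups for each gene, a quantity that depends on how many peaks passed the caller's threshold and on how wide they were. Both I-BET151 libraries lay above both DMSO libraries at 5 of the 10 genes (SOX4, SOX5, SOX9, SOX11 and SOX12), and below them at 1 (SOX18). The groups overlapped at SOX6 and SOX13, and SOX2 and SOX17 had no peak to compare. Across the 15184 protein-coding genes with a peak in their window, 12.5% lay above in both I-BET151 libraries and 44.4% lay below. The median ratio of I-BET151 to DMSO was 0.93 over the 14418 of these genes that were covered in both groups. Of the 8 SOX genes with a peak, the 5 above made up a larger share, and the 1 below a smaller share, than over all genes. With 2 libraries a group, the exact permutation test has 6 assignments, and its smallest two-sided p is 0.33, so no gene could pass a threshold of 0.05.

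**Figure D1:**
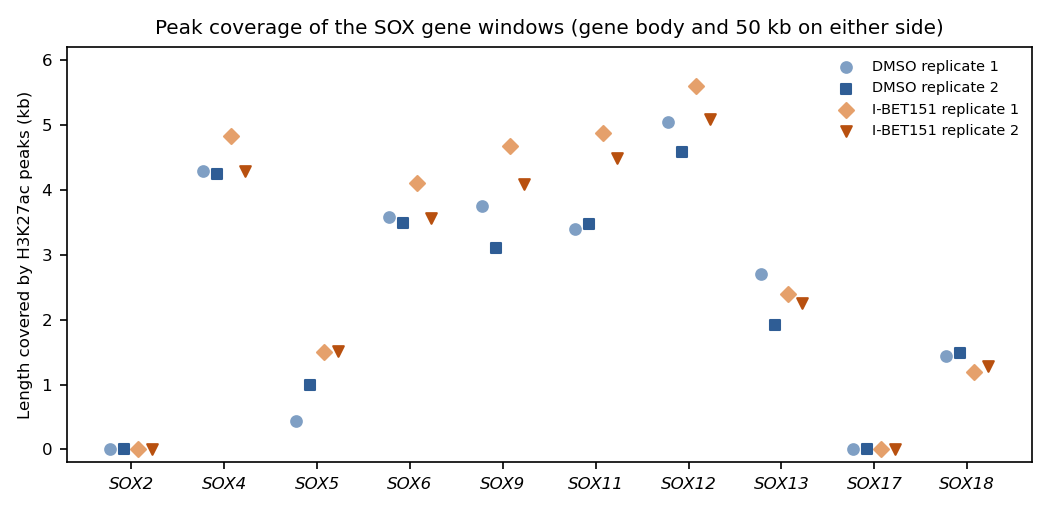
Length covered by H3K27ac peaks (kb, vertical axis) in the windows of the 10 SOX genes, 50 kb beyond each end of the gene, 1 point per library (circles and squares, DMSO; diamonds and triangles, I-BET151). At SOX5, SOX9, SOX11 and SOX12 both I-BET151 points sit above both DMSO points, at SOX18 below, and SOX2 and SOX17 are at 0.

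Summed over the 10 genes, peaks covered 24.6 and 23.3 kb in the DMSO libraries and 29.2 and 26.6 kb in the I-BET151 libraries. Means were 24.0 ± 0.95 kb (SD, n = 2) and 27.9 ± 1.83 kb (SD, n = 2), a difference of 3.90 kb (exact permutation test, two-sided p = 0.33, the smallest it allows). The groups did not overlap (a difference of 1.99 kb in windows of 100 kb), while the covered length of the whole lists was lower in both I-BET151 libraries.

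SOX9, the group E factor of the progenitor pool, was covered over 3.74 and 3.11 kb in the DMSO libraries and 4.67 and 4.10 kb in the I-BET151 libraries. Means were 3.43 ± 0.45 and 4.39 ± 0.41 kb (SD, n = 2 each), a difference of 0.96 kb and a ratio of 1.28, with no overlap between groups (exact permutation p = 0.33). Among the genes covered in both groups this ratio was at percentile 94.2, and the mean covered length of SOX9 over the 4 libraries at percentile 90.2. The 3 genes whose covered lengths over the 4 libraries were nearest to those of SOX9 were ENSG00000284691, SEPHS2 and HIVEP2, at Euclidean distances of 355, 459 and 510 bp.

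All SOX9 peaks within 50 kb lay in 1 cluster of 7 regions, from 5.0 kb before the start to 2.9 kb past it. The gene spans chr17:72121020-72126416. The region at the start itself, chr17:72121054-72122206 in the 5′ untranslated exon, had a fold over local background of 6.42 and 5.45 in the DMSO libraries and 8.75 and 13.3 in the I-BET151 libraries. In RPM, the ChIP reads at the summit scaled to a depth of 1 M reads, its height was 37.7 and 33.5 in the DMSO libraries and 45.8 and 49.4 in the I-BET151 libraries, so both measures were without overlap and higher after I-BET151.

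Next, the upstream part of the cluster was examined. The region 3.0 kb upstream, chr17:72117721-72118480, lies in an intron of the noncoding gene ENSG00000288605. Its fold was 5.05 and 4.48 in the DMSO libraries and 10.4 and 8.59 in the I-BET151 libraries, and its RPM were 19.6, 16.7, 23.7 and 28.6 in the same order. Both I-BET151 libraries were above both DMSO libraries on either scale.

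The region 0.7 kb upstream, chr17:72120046-72120536, differed between the 2 scales. Its fold was 12.4 and 8.21 with DMSO and 6.64 and 13.2 with I-BET151, which overlapped. Its RPM were 21.5 and 19.5 with DMSO and 25.9 and 29.4 with I-BET151, which did not. The background level under its summit, in input reads, was 4.35, 6, 11 and 5, so the library with the lowest fold was the one with the highest background.

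In the coding exons of SOX9, the region 1.9 kb past the start (chr17:72122551-72123184) held 21.5 and 24.5 RPM with DMSO and 31.8 and 35.1 with I-BET151. The fold of that region was 5.10, 10.3, 6.51 and 15.8 in the order DMSO replicates 1 and 2, I-BET151 replicates 1 and 2, and overlapped between groups. The region 2.9 kb past the start (chr17:72123459-72124438) had a fold of 4.80 and 4.36 with DMSO and 11.6 and 4.87 with I-BET151. Its reads could not be recovered in DMSO replicate 1 and stood at 22.3, 33.9 and 34.3 RPM in the others.

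The outermost region of the cluster, 5.0 kb upstream at chr17:72115830-72116207 in an exon of SOX9-AS1, was listed in the 2 I-BET151 libraries but absent from the DMSO lists. Its fold was 6.94 and 3.91 and its RPM 11.1 and 12.8. The sequence printed for it holds 1 SOX word and 1 cAMP response element. At the background of the I-BET151 libraries under these summits (4 and 8 input reads), a DMSO summit would have needed between 4.40 and 6.91 RPM to be listed. The background of the DMSO libraries at this site is unknown, and so is their own limit. Their levels are unknown too, since a region missing from a list is one that did not pass the threshold. The neighbouring region at 4.1 kb upstream was in the list of DMSO replicate 1, at 6.66 RPM, and in both I-BET151 lists at 11.7 and 13.2.

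This region 5.0 kb upstream was the only one of the 30 that appeared with I-BET151 alone, and no region at a SOX gene was present with DMSO alone. Of all 15752 regions, 2.81% were gained in this sense and 8.60% were lost. With 30 regions those shares amount to few regions of either kind, and nothing is read from counts of 1 and 0. The other 7 regions were in 1 to 3 lists without following the groups, with 3 at SOX12, 2 at SOX13, 1 at SOX4 and 1 at SOX9. Of these, 4 were in both I-BET151 lists and in 1 DMSO list, 2 were in I-BET151 replicate 1 alone, and 1 was in DMSO replicate 1 alone.

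**Figure D2:**
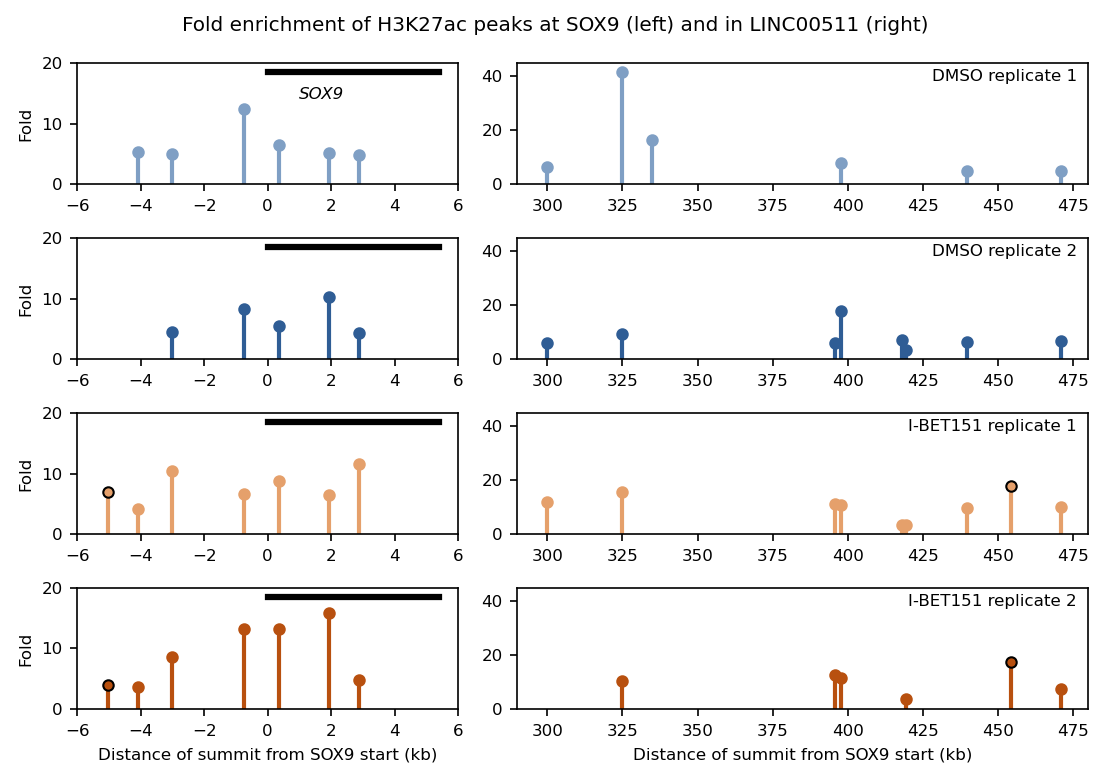
Fold enrichment over local background (vertical axis, a ratio) of each peak by the distance of the region's summit from the SOX9 start (kb, horizontal axis), 1 row per library, with the gene body as a black bar. Left, the cluster around the gene; right, the distant downstream flank, on a taller fold scale. Points with a black rim mark the 2 regions that were in each I-BET151 list but absent from the DMSO lists.

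Within 500 kb of SOX9, peaks covered 6.55 and 6.41 kb in the DMSO libraries and 9.22 and 6.77 kb in the I-BET151 libraries. Means were 6.48 ± 0.10 and 7.99 ± 1.74 kb (SD, n = 2 each), a difference of 1.52 kb (exact permutation p = 0.33). I-BET151 replicate 2 stood close to the DMSO libraries and I-BET151 replicate 1 apart from them, and without the latter the difference was 0.29 kb. Without the inner 50 kb, the lengths were 2.81 and 3.30 kb with DMSO and 4.55 and 2.67 kb with I-BET151, and the groups overlapped.

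The flank beyond 50 kb held 10 regions, 0 of them upstream. All 10 lay between 299.955 and 471 kb downstream and inside LINC00511, a long noncoding RNA gene on the opposite strand (chr17:72290091-72640472), so a peak there cannot be assigned to SOX9 or to LINC00511 from these lists. Only 3 of the 10 were in all 4 lists, against 5 of 7 in the cluster at the gene.

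These 3 regions did not lie on the same side. At 325 kb (chr17:72445439-72445983), RPM were 20.9 and 19.3 with DMSO and 15.1 and 11.4 with I-BET151, lower in both I-BET151 libraries. Its fold of 41.7 in DMSO replicate 1 was the highest of the locus and stood on a background of 0.54 input reads, against 9.48, 15.6 and 10.5 elsewhere on backgrounds of 5, 2 and 2. At 398 kb (chr17:72518641-72519041), RPM were 15.1 and 13.4 with DMSO and 21.0 and 17.2 with I-BET151. At 471 kb (chr17:72591503-72592759), in an exon of LINC00511, they were 28.1 and 27.7 with DMSO and 43.2 and 42.3 with I-BET151. In RPM both of the latter were higher in both I-BET151 libraries. The fold at 398 kb overlapped (7.81 and 17.8 with DMSO, 10.8 and 11.7 with I-BET151), while at 471 kb it did not (5.09 and 6.78 against 10.2 and 7.59).

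The distant region listed with I-BET151 alone, 454 kb downstream at chr17:72575230-72575619 in a LINC00511 intron, had a fold of 17.9 and 17.4 and 11.5 and 12.7 RPM. Had the DMSO background been the 1 input read of the I-BET151 libraries, between 2.01 and 2.13 RPM would have placed it in a DMSO list. Both I-BET151 summits stood above that value. The DMSO background there is unknown, so the limit and the level of the DMSO libraries are unknown too.

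Among group C genes, which encode transcriptional activators, SOX11 had the largest difference between group means of the 10 genes. Peaks covered 3.39 and 3.47 kb of its window with DMSO and 4.87 and 4.49 kb with I-BET151. Means were 3.43 ± 0.06 and 4.68 ± 0.27 kb (SD, n = 2 each), a difference of 1.25 kb and a ratio of 1.36 (percentile 95.6 of genes covered in both groups; exact permutation p = 0.33).

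Nearly all of the SOX11 difference came from its promoter region, chr2:5690823-5693968. The summit lay 486 bp from the SOX11 start and 410 bp from a start of the noncoding gene LINC01248, so the region cannot be assigned to SOX11 alone. This promoter region was covered over 1674 and 1705 bp with DMSO and over 3066 and 2707 bp with I-BET151. The fold at its summit was 6.08 and 6.21 with DMSO and 8.52 and 10.5 with I-BET151, and RPM were 33.7, 27.5, 41.8 and 44.5. The second SOX11 region, chr2:5695809-5697618 in the untranslated part of the single exon, held 27.8 and 27.3 RPM with DMSO and 30.6 and 31.9 with I-BET151, while its fold overlapped (4.07, 5.40, 4.94 and 4.52).

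SOX4 showed the smallest separation. Peaks covered 4.295 and 4.247 kb with DMSO and 4.827 and 4.296 kb with I-BET151, so that I-BET151 replicate 2 exceeded DMSO replicate 1 by the least margin the unit allows (means 4.27 ± 0.03 and 4.56 ± 0.38 kb, SD, n = 2 each, exact permutation p = 0.33). Summit heights at SOX4 were further apart than lengths. The region 6.0 kb upstream (chr6:21586982-21589014), in an intron of a noncoding gene, had 23.6 and 20.8 RPM with DMSO and 35.8 and 35.5 with I-BET151. Its fold was 6.92 and 6.81 against 8.49 and 10.7.

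At the SOX4 start (chr6:21594208-21596357) RPM were 44.3 and 39.4 with DMSO and 51.8 and 55.2 with I-BET151, with a fold of 7.15 and 5.23 against 11.3 and 9.27. At 3.0 kb (chr6:21596558-21596949), in the untranslated part of the exon, the fold was 9.04 and 9.64 against 14.5 and 11.0. All 3 SOX4 regions that were in every list lay higher in both I-BET151 libraries on both scales.

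SOX12 was covered over 5.05 and 4.58 kb with DMSO and 5.60 and 5.09 kb with I-BET151 (means 4.81 ± 0.33 and 5.34 ± 0.36 kb, SD, n = 2 each, exact permutation p = 0.33). Its window also holds starts of ZCCHC3, NRSN2 and C20orf96. The SOX12 promoter region itself (chr20:325373-326980) held 31.5 and 21.4 RPM with DMSO and 36.0 and 40.6 with I-BET151. Its fold, 6.92 and 5.73 against 6.89 and 7.80, overlapped. At the NRSN2 start in the same window, RPM lay the other way, at 35.0 and 27.04 with DMSO and 25.8 and 24.8 with I-BET151. At the ZCCHC3 start RPM were higher in both I-BET151 libraries, at 54.5 and 44.2 with DMSO and 57.0 and 56.7 with I-BET151. In windows of 100 kb the SOX12 difference was −0.75 kb, with both I-BET151 libraries below.

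Group D factors have no transactivation domain of their own. SOX5 had 1 region in a window of over 1 Mb, at its promoter (chr12:24561895-24563442). It was covered over 432 and 987 bp with DMSO and 1504 and 1516 bp with I-BET151, a mean of 0.71 ± 0.39 kb against 1.51 ± 0.01 kb (SD, n = 2 each, ratio 2.13, percentile 98.7 of genes covered in both groups, exact permutation p = 0.33). Heights were closer than widths, with 16.2 and 13.3 RPM for DMSO against 19.1 and 19.0 for I-BET151, and a fold of 4.57 and 4.94 against 4.91 and 5.17, which overlapped.

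SOX6 coverage overlapped between groups, at 3.59 and 3.50 kb with DMSO and 4.10 and 3.56 kb with I-BET151 (exact permutation p = 0.67). Its tallest peaks lay at internal starts of the gene. At the region chr11:16606754-16607788 RPM were 33.3 and 31.7 with DMSO and 48.2 and 47.7 with I-BET151, and fold was 7.30 and 6.19 against 11.9 and 8.54. At the neighbouring region chr11:16603757-16605763 they were 34.0 and 33.5 against 46.2 and 46.9, while its fold overlapped (5.81 and 12.3 against 10.1 and 8.40). Both internal regions were thus higher in both I-BET151 libraries in RPM, although the summed length was not separated.

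At the far 5′ start of SOX6 (chr11:16738285-16738897), 1.0 kb past the start and also within 3 kb of a start of C11orf58, RPM overlapped, at 12.3 and 10.1 with DMSO and 13.5 and 12.2 with I-BET151. The fold there reached 13.5 in DMSO replicate 2 on a background of 1.24 input reads, against 4.27, 6.02 and 6.70 on backgrounds of 8, 6 and 4. The highest fold at this region therefore came from the library with the fewest RPM.

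SOX13 covered lengths were 2.71 and 1.91 kb with DMSO and 2.39 and 2.25 kb with I-BET151, which overlapped, with means of 2.31 ± 0.56 and 2.32 ± 0.10 kb (SD, n = 2 each, exact permutation p = 1). Its promoter region (chr1:204073066-204075472) held 28.6 and 27.3 RPM with DMSO and 23.8 and 25.9 with I-BET151. It was the single promoter region of a SOX gene that lay lower in both I-BET151 libraries on this scale, while its fold (4.00, 6.68, 4.90 and 8.51) overlapped. An intron region 11.4 kb past the start was in DMSO replicate 1, at 6.03 RPM, and in both I-BET151 libraries at 13.0 and 14.2.

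SOX18, an endothelial factor of group F, had 1.45 and 1.49 kb covered with DMSO and 1.20 and 1.28 kb with I-BET151 (means 1.47 ± 0.03 and 1.24 ± 0.06 kb, SD, n = 2 each, exact permutation p = 0.33). All 3 of its regions lay at starts of other genes, 2 at TCEA2 and 1 shared by RGS19 and OPRL1, and the nearest was 12.9 kb from the SOX18 gene body. The region nearest to SOX18, at TCEA2, held 23.9 and 25.1 RPM with DMSO and 29.5 and 32.3 with I-BET151. The region at RGS19 and OPRL1 lay the other way, at 17.3 and 15.1 RPM against 10.7 and 14.2. The lower length in the window of SOX18 was thus measured at starts of its neighbours. For SOX17 (group F) the nearest region of any library was 322 kb away, and for SOX2 722 kb away, at starts of MRPL15 and DNAJC19.

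The heights of the shared regions were then compared as a whole. Of the 30 regions, 22 were in all 4 lists. By fold, both I-BET151 libraries lay above both DMSO libraries at 8 of 22 and below at 0, against 25.4% above and 16.4% below over all 10317 such regions. By RPM, which could be recovered in every library for 21 of them, 16 lay above and 3 below, against 29.9% and 31.1% over 10028 regions. With reads scaled to the median of shared regions instead of depth, 18 lay above and 3 below, against 44.4% and 28.9%. By covered bp 10 lay above and 1 below, against 16.0% and 33.3%.

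Median ratios of I-BET151 to DMSO over the SOX regions were 1.18 in fold, 1.34 in RPM and 1.06 in covered bp. Over all regions in 4 lists they were 1.06, 1.00 and 0.97. The scales therefore placed different numbers of SOX regions above, and the fold, whose denominator varied between libraries at single regions, placed the fewest. With 1 library fewer the condition is easier to meet. Without DMSO replicate 2 the number above by fold was 16 of 22 (45.9% of all regions). Without I-BET151 replicate 1 it was 15 (41.5% of all regions), and without DMSO replicate 1 it was 11 (35.5%). Without I-BET151 replicate 2 it was 9 of 22, against 39.99% of all regions. In that last setting the SOX share was close to the share over all regions, so the larger share by fold did not hold in every setting.

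**Figure D3:**
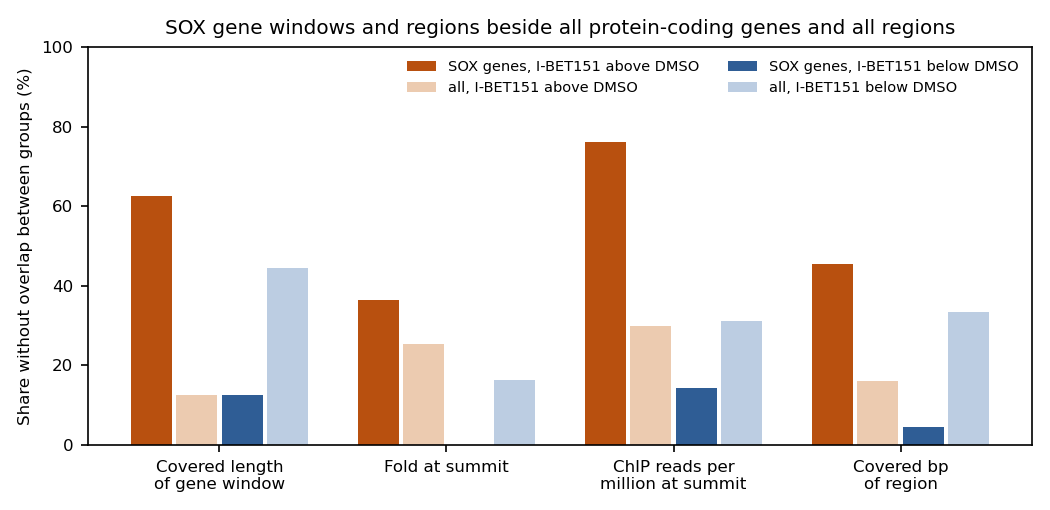
Share (%, vertical axis) of the 8 SOX gene windows with a peak and of the SOX regions in all 4 lists in which both I-BET151 libraries lay above (orange) or below (blue) both DMSO libraries, beside the same share over all protein-coding genes or all regions (pale), for 4 measures. The share above is larger for SOX in each measure, and by fold no SOX region lay below.

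The same regions were counted by position. Of the 11 own-promoter regions with reads in every library, 9 lay above and 1 below in RPM. All 4 regions at neither kind of start lay above. These were close to their own genes, 2 at SOX4 (6.0 kb upstream and 3.0 kb past the start), 1 at SOX9 (3.0 kb upstream) and 1 at SOX11 (4.5 kb past the start). Those at 3.0 kb were just outside the 3 kb limit, at 3005 bp for SOX4 and 3028 bp for SOX9. Of the 6 regions at the start of another gene, 3 lay above and 2 below. Over all regions in 4 lists, whatever their position, 29.9% lay above and 31.1% below in RPM. Shares by position are not given for all regions, so the counts of each position have no background of their own. Differences between these groups were not tested.

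**Figure D4:**
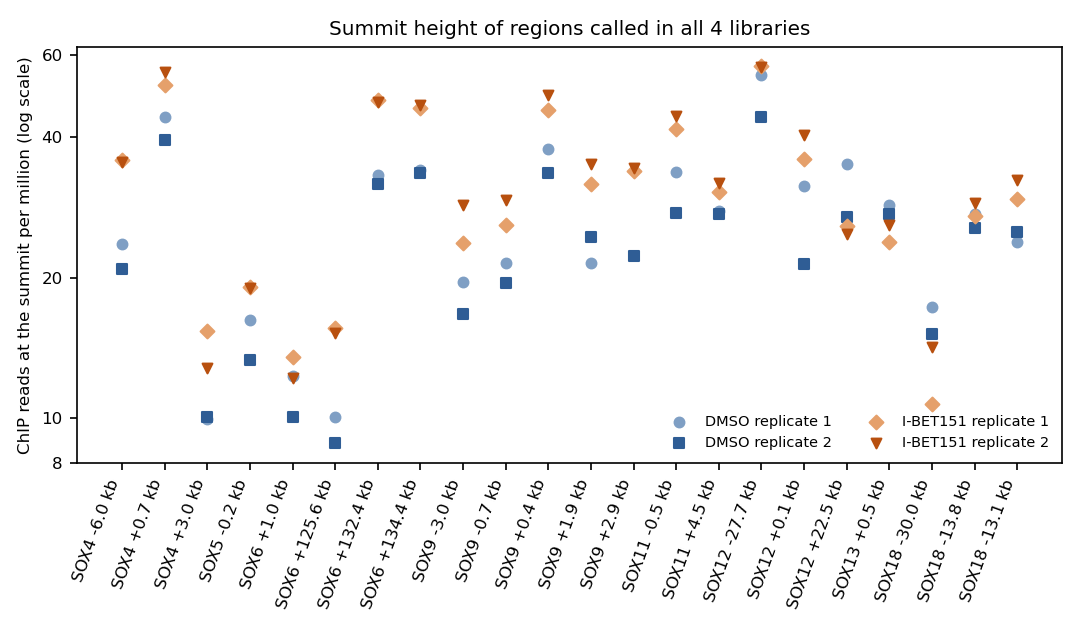
ChIP reads at the summit in RPM (log scale, vertical axis) of the 22 regions in all 4 lists, ordered by gene and by distance of the summit from the gene start, 1 point per library. I-BET151 points (orange) lie above DMSO points (blue) at SOX4, SOX5, SOX11 and every SOX9 region with 4 values, and below at SOX13; 1 value of SOX9 could not be recovered.

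The peaks were also placed by their rank within each library's own list. The lists differ in length, so positions are given as a percent of the list, counted from the top. For the peak with the lowest p in the gene body and its 3 kb flanks, SOX9 was at 24.2% and 25.1% with DMSO and at 10.0% and 2.30% with I-BET151. SOX4 was at 12.3% and 29.6% against 2.98% and 4.78%, and SOX11 at 31.6% and 39.7% against 14.2% and 8.68%. SOX12 was at 29.7% and 52.9% against 26.3% and 20.3%, and SOX5 at 71.2% and 74.7% against 64.0% and 66.8%. The groups overlapped at SOX6 (24.5% and 5.34% against 3.68% and 11.1%) and at SOX13 (56.9% and 36.1% against 55.7% and 37.5%). Thus 5 of 7 SOX genes stood nearer to the top in both I-BET151 libraries and 0 stood farther from it, against 17.7% and 33.3% of the 9978 protein-coding genes with such a peak in every list.

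To ask whether the regions at SOX genes carry SOX sites themselves, 501 bp around each summit were searched. Of 30 regions, 14 (46.7%) held ACAAT or ACAAAG on either strand, against 33.2% of all regions and 43.9% of the regions over 3 kb from coding starts. In the SOX9 cluster 1 of 7 held a match, the region 5.0 kb upstream with 3, of which 1 was inside the peak. Of the 10 distant regions 4 held one. Within 100 bp of the summit 8 of 30 regions (26.7%) held a SOX word, against 11.5% of all regions and 13.9% of those over 3 kb from coding starts. The median GC content was 66.6% in SOX regions and 66.9% in all regions.

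TGGGAA (RBPJ) was in 9 of 30 regions (33.0% of all regions). It was in 6 of the 10 distant SOX9 regions, against 45.4% of the regions over 3 kb from coding starts. The FOXA word TGTTTAC was in 2 regions (2.65% of all), and the word of GATA factors, AGATAA, in 1 region (6.09% of all). The AP-1 word TGACTCA, or its variant TGAGTCA, was in 1 region (5.12% of all). The PDX1 word TAATTA was in 0 regions (2.06% of all). TGACGTCA was in 1 (1.40%). A match is a run of letters and not evidence of binding.

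Finally, the remaining SOX genes and genes tied to SOX9 were examined. Of 9 other SOX genes (SOX1, SOX3, SOX7, SOX8, SOX10, SOX14, SOX15, SOX21 and SOX30), 5 had no peak in their window. SOX8, the group E relative of SOX9, was covered over 0.66 and 1.04 kb with DMSO and 1.52 and 1.60 kb with I-BET151. SOX10, also of group E, lay below, at 0.47 and 0.45 against 0.38 and 0.35 kb, and the other 2 overlapped.

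Of 10 genes linked to SOX9 in PPs, 8 had a peak in their window, 4 lay above in both I-BET151 libraries and 0 below, against 12.5% and 44.4% of all genes with a peak. ONECUT1, which acts in the same progenitors, was covered over 5.23 and 4.70 kb with DMSO and 7.86 and 8.01 kb with I-BET151. FOXA2, a pioneer factor of endoderm, was at 6.40 and 5.64 kb against 7.14 and 7.12 kb. The others above were NKX6-1 and FGFR2. PDX1, HES1 and SPP1 were among those that overlapped, and PTF1A and NEUROG3 had no peak.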

How the data were processed

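H3K27ac ChIP-seq peak lists of 2 DMSO and 2 I-BET151 libraries were analysed, with groups and replicate numbers taken from the sample titles. Per the study's methods and the submitters' processing notes, the authors aligned reads to hg38 with Bowtie2 (2.2.5), removed duplicates and mitochondrial reads, and called peaks for each library, replicates not pooled, with MACS2 (2.1.2) at default settings. Each deposited list gives a fold (the ratio of ChIP to local background at the summit), −log10 p-values and −log10 q-values, and a score left unused. The weakest listed peak had a −log10 q of 1.30, so weaker regions are not listed.

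The 10 SOX genes and all gene and motif lists were chosen with earlier results of these data known. Gene models were GENCODE release 44. Peaks sharing at least 1 bp across libraries were merged into regions. ChIP and input reads at each summit were recovered from the deposited fold and −log10 p-values, after the step had been tested on simulated data. Of the peaks with a single solution, 100% fell on whole ChIP reads, and between 98.5% and 99.0% of all peaks were resolved. The recovered read counts carry counting error and are given as RPM, per M reads of the recovered depth. That depth was computed from the lowest input level, an assumed genome size and the length of the shortest peak of each list. The simulated data did not test the depth, on which RPM rest. A summit counted as a promoter peak within 3 kb of a start. Groups were compared by a two-sided exact permutation test over 6 assignments and by whether the libraries of the groups overlapped, beside the same share over all genes or regions. Named besides the SOX genes were genes of fixed lists, genes whose starts lay within 3 kb of a peak, and the 3 genes nearest to SOX9 in covered length. An item of the lists is not reported here by name. Alternatives were windows of 10 and 100 kb (250 and 1000 kb at SOX9), a −log10 q of at least 5, equal numbers of top-ranked peaks, peaks within 500 bp merged, peaks at starts of other genes left out, a coverage of 50% for shared regions, and each library left out. As a check of the build, between 82.1% and 85.9% of summits lay within 3 kb of a coding start, against 17.3% to 18.0% after a shift of 1 Mb. Python 3.11.15, numpy 2.4.6, pandas 2.3.3 and scipy 1.17.1 were used.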

Additional observations from a re-analysis of the deposited data

How the results depend on the processing

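The number of SOX genes above in both I-BET151 libraries was between 4 and 7 in every alternative, against 5. Shares over all genes are not given for the gene counts in the alternatives, and separation is easier to meet with a library left out. Of 100 recomputed differences in covered length (10 results, without SOX2 and SOX17, which have no peaks), 88 kept direction and call, 4 lost separation, 4 gained it and 4 reversed. Part of the 88 was fixed in advance. The replicate block repeats each difference by construction, and leaving out a library cannot undo a separation already present over all libraries. The number of SOX genes below (1) was 0 with 10 kb windows, a −log10 q of at least 5, equal numbers of top-ranked peaks or without peaks at other genes' starts, 3 with 100 kb windows, and from 1 to 2 with a library left out (2 without DMSO replicate 2). In 100 kb windows SOX12 (−0.75 kb) and SOX13 (−0.56 kb) reversed. SOX13 ranged from −0.38 kb (without DMSO replicate 2) to 0.41 kb with a library left out, and was −0.06 kb without I-BET151 replicate 1. SOX18 lost its separation in 4 alternatives. The cause of these changes was not tested.

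Among top-ranked peaks, equal in number, gained regions were 3 at the SOX genes and 4 within 500 kb of SOX9. Leaving out a library gave from 2 to 4 gained regions at the SOX genes (4 without DMSO replicate 1) and from 2 to 4 within 500 kb of SOX9 (4 without DMSO replicate 2), and from 0 to 1 and from 0 to 2 lost. Shares over all regions are not given for these gained and lost counts, so nothing is read from them. Regions with a higher summit numbered 8 by fold, 16 by RPM and 18 by reads scaled to the median of shared regions. By fold they numbered from 9 to 16 with a library left out, when 35.5% to 45.9% of all regions lay above. The count of 9 of 22 was without I-BET151 replicate 2, when 39.99% of all regions lay above, a share close to that of the SOX regions. Regions with a lower summit numbered 0, 3 and 3, and from 0 to 4 (24.9% to 35.4% of all regions). The median scaling and the libraries left out for summits were chosen after seeing the data.

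Replicate numbers were shared by the groups but not tied to a common culture. Deviations of same-numbered libraries correlated at 0.11 over 15184 genes. The same-numbered pairs differed in the SOX sum by 4.52 and 3.28 kb. With equal numbers of libraries, a replicate block returns the same difference (3.90 kb) and the same counts above and below (5 and 1) by construction. It therefore says nothing about the effect of pairing. Each group has 2 libraries and the lists hold regions past a threshold only, so neither small differences nor unlisted regions could be assessed.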
